A study of Homo sapiens with 12 samples.

Results

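The regions described here are the stretches of H3K27ac on human chromosomes 4, 13 and 18. Broad peaks of 9 libraries were merged, so that overlapping or touching peaks became 1 region, and every merged region on these chromosomes was taken. Of 667017 peaks in the 9 lists, 66989 were on chromosomes 4, 13 and 18. Merging gave 13122 regions there, with 7725 on chromosome 4, 2971 on chromosome 13 and 2426 on chromosome 18. They were 11.2% of the 117312 regions on the 22 autosomes, and all sequences together held 121531. The length from the first to the last region of each chromosome, called the span here, summed to 365 Mb for these chromosomes, which is 13.1% of the autosomal span.

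Peaks came from native (unfixed) ChIP-seq of MDA-MB231, a human breast cancer cell line, with 250000 to 500000 cells for each immunoprecipitation. All cells had been infected with a lentivirus and then grown for 96 h. The virus was EV-control in the Control group, carried CDK19 shRNA in the CDK19KD group and carried CDK8 shRNA in the CDK8KD group, with 3 libraries in each group. The questions are whether acetylation differs from Control when either kinase is knocked down, and whether the knockdowns differ from each other. The labels do not say whether the 3 libraries of a group came from separate cultures, so p-values measure only the spread between these libraries, which may be technical. Neither the efficiency of the knockdowns nor the Input samples were examined here, and read depth is unknown, so no value carries a counting error. Between any pair of libraries at most 1 peak on these chromosomes had the same coordinates.

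H3K27ac is an acetylation of histone H3 found at active promoters and enhancers, and it is sparse in gene deserts. Chromosomes 13 and 18 are textbook examples of gene-poor chromosomes that tend to lie toward the nuclear periphery, and chromosome 4 also holds long gene deserts. CDK8 and CDK19 are paralogous kinases of the Mediator kinase module, which links transcription factors at enhancers to RNA polymerase II. The CDK8 gene itself lies on chromosome 13 and the CDK19 gene on chromosome 6.

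The name gene-poor held for these chromosomes. Protein-coding genes, counted per chromosome in the RefSeq table of GRCh38.p14, numbered 770 on chromosome 4, 338 on chromosome 13 and 270 on chromosome 18. That was 4.03, 3.52 and 3.46 genes per Mb of span, the 3 lowest values among the 22 autosomes.

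Peaks were sparser, covered less of the span and were slightly narrower on chromosomes 4, 13 and 18 than on the other 19 autosomes, and each of these held in 9 of 9 libraries. Peak density on chromosomes 4, 13 and 18 was 19.04, 26.2 and 22.6 peaks per Mb in Control replicates 1, 2 and 3. It was 19.3, 20.3 and 19.1 peaks per Mb in the CDK19KD libraries, and 18.01, 19.7 and 19.3 in the CDK8KD libraries. Control replicates 2 and 3 were the densest libraries, and the other 7 lay close together. On the other autosomes the same libraries had 23.4, 31.2 and 30.6 peaks per Mb (Control), 23.5, 26.9 and 25.1 (CDK19KD) and 22.4, 27.003 and 26.6 (CDK8KD). Mean density was 20.4 ± 2.52 peaks per Mb (SD, n = 9) on chromosomes 4, 13 and 18 against 26.3 ± 3.10 on the other autosomes. The mean log2 ratio was −0.37 ± 0.082 (SD), or 77.6% of the density elsewhere. It was −0.57 among the 20000 strongest peaks and −0.55 without chromosome 4. An exact two-sided permutation test, which flips the sign of each library's log2 ratio in all arrangements, gave p = 0.00391, the smallest it can give (adjusted over 5 measures, 0.00651). The 9 libraries share 1 cell line and 1 genome, so this test concerns only the spread between libraries.

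The covered share of the span fell further below the other autosomes than the density did. On chromosomes 4, 13 and 18 the peaks covered 7.02%, 8.82% and 7.44% of the span in Control replicates 1, 2 and 3. In CDK19KD they covered 7.32%, 6.62% and 6.56%, and in CDK8KD 7.61%, 6.91% and 7.12%. The lowest library was CDK19KD replicate 3, the highest Control replicate 2, and the 3 groups overlapped. The mean was 7.27 ± 0.679% (SD, n = 9) against 10.5 ± 0.886% on the other autosomes, a log2 ratio of −0.53 ± 0.12 (SD), or 69.2% (exact permutation p = 0.00391, adjusted 0.00651).

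Median peak width on these chromosomes was 2577, 1887 and 1801 bp in Control, 2634, 2078 and 2311 bp in CDK19KD, and 2974, 2188 and 2298 bp in CDK8KD (replicates 1, 2 and 3). Replicate 1 had the widest peaks in each group. The mean of the medians was 2305 ± 375 bp (SD, n = 9) against 2490 ± 400 bp elsewhere, a log2 ratio of −0.11 ± 0.019 (92.6%, exact permutation p = 0.00391, adjusted 0.00651). Among only the 20000 strongest peaks of each list the width ratio was −0.041 on the log2 scale and no longer passed (exact permutation p = 0.102). It was −0.055 among peaks with −log10 q of at least 5 and −0.050 without chromosome 4 (exact permutation p = 0.0117 for both). The height of peaks differed least. The median fold enrichment given by the authors' peak caller was 2.74 ± 0.162 (SD, n = 9) against 2.79 ± 0.203, lower in 6 of 9 libraries (log2 ratio −0.023 ± 0.031, exact permutation p = 0.0625, adjusted 0.0625).

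**Figure D1:**
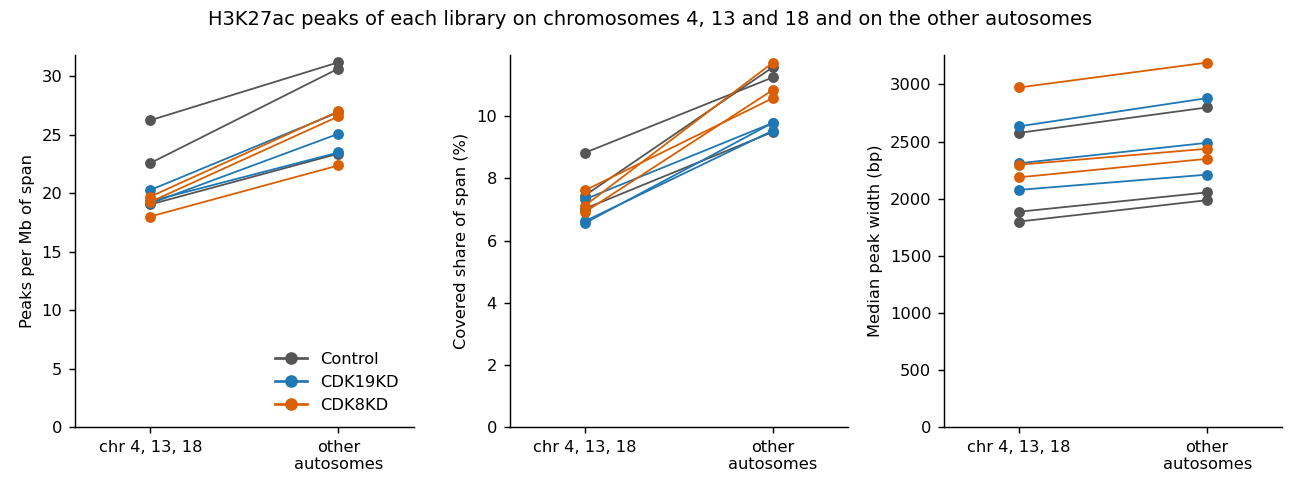
Peaks per Mb of span (left), share of the span covered by peaks in percent (middle) and median peak width in bp (right) of each library on chromosomes 4, 13 and 18 and on the other autosomes, with 1 line per library coloured by group. Every line rises from left to right in all 3 panels, from a mean of 20.4 to 26.3 peaks per Mb, from 7.27% to 10.5% covered and from 2305 to 2490 bp.

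Chromosomes 13 and 18 were the sparsest of all autosomes, while chromosome 4 stood out by narrow peaks. Mean density was 17.6 ± 1.64 peaks per Mb (SD, n = 9) on chromosome 13, the lowest of 22 autosomes, and 18.2 ± 2.41 on chromosome 18, the next lowest. Chromosome 4 had 22.7 ± 3.15 peaks per Mb and ranked 7 from the bottom. Chromosome 13 ranked 1 to 3 from the bottom in all 9 libraries and chromosome 18 ranked 1 to 4. The covered share was 6.12 ± 0.561% on chromosome 13, 6.68 ± 0.571% on chromosome 18 and 8.09 ± 0.903% on chromosome 4, with ranks 1, 2 and 5. Against the 19 other autosomes the density was 67.2% on chromosome 13, 69.2% on chromosome 18 and 86.1% on chromosome 4, lower in 9 of 9 libraries for each (exact permutation p = 0.00391, adjusted over 15 tests 0.00732).

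Chromosome 4 had the lowest median peak width of the 22 autosomes in each of the 9 libraries. Its mean of medians was 2232 ± 365 bp (SD, n = 9), which was 89.6% of that on the 19 other autosomes (lower in 9 of 9 libraries, exact permutation p = 0.00391, adjusted 0.00732). Peaks on chromosome 13 were 96.1% as wide as elsewhere (lower in 8 of 9 libraries, exact permutation p = 0.00781, adjusted 0.0130). Those on chromosome 18 were 96.9% as wide (lower in 8 of 9, exact permutation p = 0.0195, adjusted 0.0293). Fold enrichment was also lower on chromosome 4, at 96.5% of the value elsewhere in 9 of 9 libraries (exact permutation p = 0.00391, adjusted 0.00732). On chromosomes 13 and 18 it was 101% and 100.3% of the value elsewhere (exact permutation p = 0.145 and 0.605, adjusted 0.167 and 0.605). Without chromosome 4, the log2 ratio of fold enrichment was 0.013 (exact permutation p = 0.223).

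Set against genes rather than length, the same chromosomes ranked high among the autosomes. Peaks per gene are peaks per Mb divided by genes per Mb, in which these chromosomes are the 3 lowest. Genes per Mb ran from 3.46 to 24.6 over the autosomes and peaks per Mb only from 17.6 to 40.8. A high rank therefore follows largely from the choice of gene-poor chromosomes, also for regions per gene. Chromosome 4 had 5.63 ± 0.781 peaks per protein-coding gene (SD, n = 9), chromosome 18 had 5.26 ± 0.695 and chromosome 13 had 5.0 ± 0.466. They ranked 22, 21 and 19 from the bottom among the 22 autosomes, and chromosome 10, with 5.16 ± 0.679, stood between chromosomes 18 and 13. These neighbours in the order differ by less than their spread over libraries. Merged regions gave the same picture, with 10.0 regions per gene on chromosome 4, 8.99 on chromosome 18 and 8.79 on chromosome 13 (ranks 22, 21 and 20). Over the 22 autosomes, peaks per Mb and genes per Mb had a Pearson correlation of 0.81 and a Spearman correlation of 0.72, and median width and genes per Mb of 0.79 and 0.84. These values are descriptions over chromosomes that share the same libraries.

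**Figure D2:**
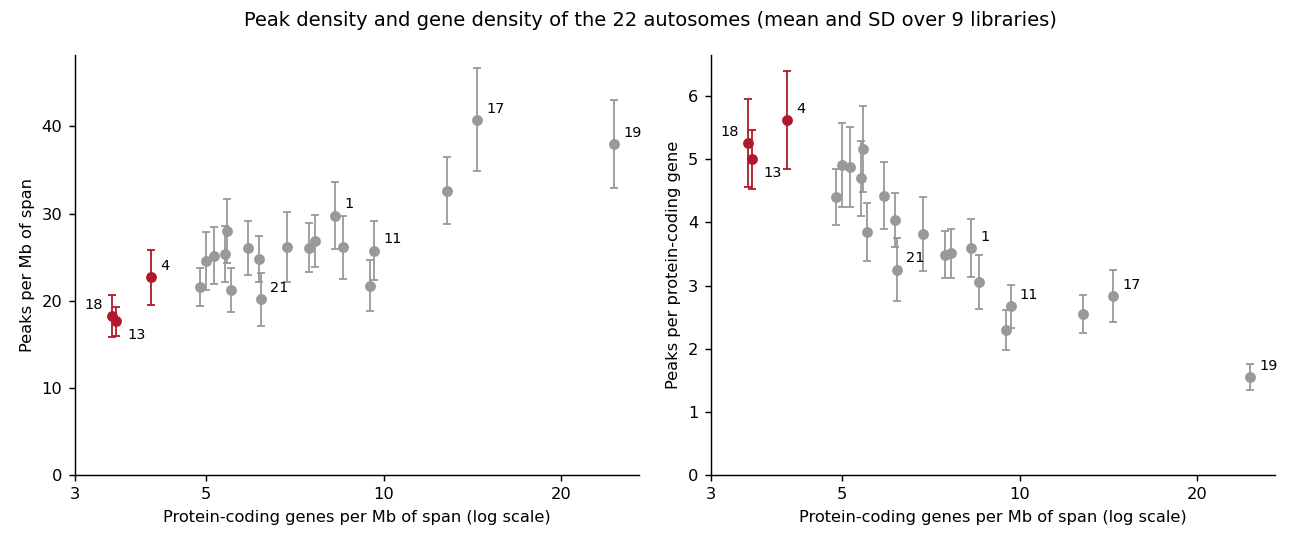
Mean peaks per Mb of span (left) and mean peaks per protein-coding gene (right) of the 22 autosomes against their protein-coding genes per Mb of span on a log scale, with bars for the SD over 9 libraries. Chromosomes 4, 13 and 18, in red, have the fewest genes per Mb, with 17.6 to 22.7 peaks per Mb at the low end of the left panel and 5.0 to 5.63 peaks per gene at the high end of the right panel.

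The acetylated regions were clustered, with long stretches between them that held none in any library. Gaps of at least 100 kb between neighbouring regions numbered 559 and took up 47.1% of the span, against 41.5% on the other autosomes. The share was 41.7% on chromosome 4, 49.8% on chromosome 13 and 57.2% on chromosome 18. In bins of 1 Mb, 87 of 367 bins (23.7%) were covered to under 1% on average, against 18.8% elsewhere. These nearly bare bins were 18.8% of chromosome 4, 28.1% of chromosome 13 and 30.4% of chromosome 18. Neither trait was particular to these chromosomes, and chromosome 4 was close to the other autosomes in both. Nearly bare bins made up 34.1% of chromosome 16, 33.3% of chromosome 21 and 28.2% of chromosome 9. Gaps of at least 100 kb took up 52.8%, 57.9% and 51.0% of their spans. Bins with no region at all made up 19.8%, 17.9% and 16.2% of chromosomes 16, 21 and 9. On chromosomes 4, 13 and 18 they made up 4.17%, 5.21% and 11.4%. Single stretches without a region, of 11625465 bp on chromosome 16 and 18206687 bp on chromosome 9, enter these shares. The values of the other autosomes also include 1 of 21101118 bp on chromosome 1. Both traits were not measured again without such stretches. The median distance between neighbouring regions was 6018 bp on chromosome 13, the longest of the 22 autosomes, 4003 bp on chromosome 18 and 3963 bp on chromosome 4.

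The longest stretches without a region were chr13:53585948-58419814 (4833867 bp), chr4:48973659-52706359 (3732701 bp) and chr18:68132008-71384672 (3252665 bp), in hg19 coordinates counted from 1. Such a stretch can be a gene desert or a sequence gap of the assembly, and which of these it was could not be read from the peak lists. At the other end, the most acetylated bin of chromosome 4, chr4:77009905-78009904, was covered to 34.4% on average over 9 libraries (30.01% to 40.3%). On chromosome 18 it was chr18:9010003-10010002 with 33.3% (28.7% to 39.3%), and on chromosome 13 chr13:110180970-111180969 with 26.2% (23.05% to 30.3%). The tenth of bins with most acetylation held 38.1% of the covered length of chromosome 18, the highest share of the 22 autosomes, 32.6% on chromosome 13 and 29.2% on chromosome 4.

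**Figure D3:**
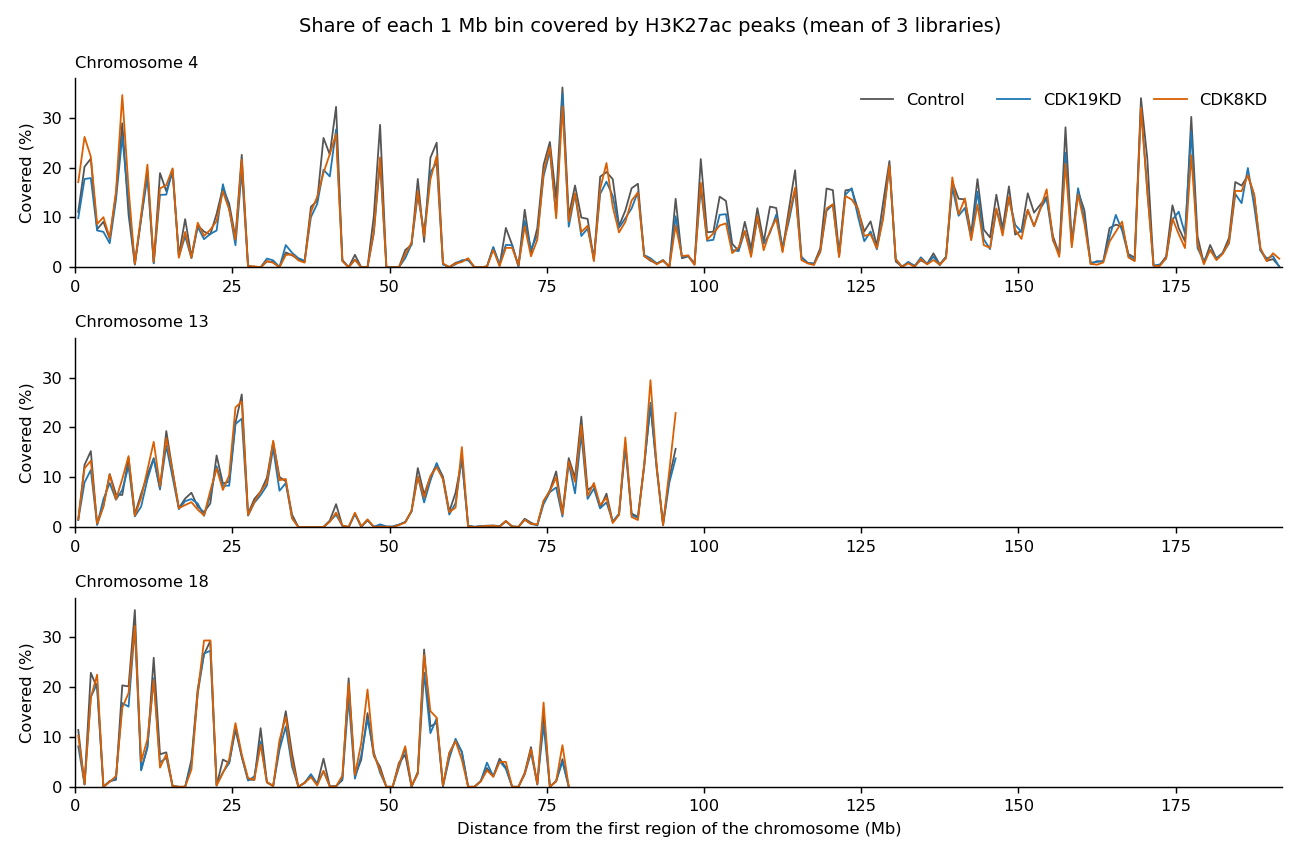
Share of each 1 Mb bin covered by peaks in percent, as the mean of 3 libraries for each group, against the distance from the first region of chromosomes 4, 13 and 18 in Mb. The 3 groups follow the same peaks and bare stretches, with single bins averaging up to 34.4% covered over the 9 libraries and 87 of 367 bins covered to under 1%.

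Most regions were either found in every library or in 1. Of the 13122 regions, 3443 (26.2%) held a peak in all 9 libraries and made up 67.1% of the merged length, with a median merged width of 7093 bp. On the other autosomes 28.4% of regions were held by all 9, with 72.0% of the merged length and a median of 7708 bp. Regions found in 1 library numbered 5149 (39.2%, against 38.5% elsewhere) and were short, with a median of 693 bp. Of these, 1836 (35.7%) came from Control replicate 2 and 1225 (23.8%) from Control replicate 3, while each of the other 7 libraries gave 237 to 347. On the other autosomes the shares of Control replicates 2 and 3 were 27.5% and 28.4%. Those 2 Control libraries also had low shares of peaks with a deposited −log10 q of at least 5, 15.1% and 23.4% on these chromosomes, in a range of 15.1% to 41.1% over the 9 libraries. CDK19KD replicate 2 and CDK8KD replicate 2 were also low, at 17.7% and 23.6%, and the part of peak strength in these counts was not tested.

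A smaller share of peaks on these chromosomes lay in regions that all 9 libraries held. That share was 62.8 ± 6.14% (SD, n = 9) against 67.1 ± 6.02% on the other autosomes, a difference of −4.37 ± 4.42 percentage points. It was lower in 8 of 9 libraries, with CDK8KD replicate 3 as the exception (exact permutation p = 0.0195, adjusted 0.0244). The call was lost without Control replicate 3 (−4.40 points, exact permutation p = 0.0547) and without CDK8KD replicate 2 (−4.26 points, exact permutation p = 0.0625). It shrank to −2.86 points among peaks with −log10 q of at least 5 (exact permutation p = 0.0273) and to −2.32 points without chromosome 4 (exact permutation p = 0.0430). By chromosome the difference was −5.79 points on chromosome 4 (exact permutation p = 0.0234, adjusted 0.0320), −3.53 on chromosome 13 (adjusted 0.0732) and −0.71 on chromosome 18 (adjusted 0.439).

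Very broad regions were rarer than elsewhere. Merged widths ran from 250 to 108599 bp with a median of 1836 bp, against 1946 bp on the other autosomes. Regions of at least 10 kb numbered 1089 (8.30%, against 10.7% elsewhere), and 31 regions (0.236%, against 0.432%) reached 50 kb. Of these 31, 22 lay on chromosome 4, 8 on chromosome 18 and 1 on chromosome 13. As shares of the regions of each chromosome these were 0.285%, 0.330% and 0.0337%.

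The widest region was chr4:1869290-1977888, with a merged width of 108599 bp. Peaks covered 42587, 66095 and 105215 bp of it in Control replicates 1, 2 and 3, in CDK19KD 50541, 57880 and 56694 bp, and in CDK8KD 64462, 87272 and 100494 bp. The 3 Control libraries alone spanned more than all 6 knockdown libraries, so the groups overlapped. Next on chromosome 4 came chr4:77551346-77655153 (103808 bp, covered to between 67244 and 88660 bp) and chr4:79447813-79524983 (77171 bp). Chromosome 18 held chr18:74740702-74847301 (106600 bp), of which 70025 to 104404 bp were covered, with the lowest value in CDK19KD replicate 2 and the highest in CDK8KD replicate 3. Its next widest were chr18:21091955-21179475 (87521 bp) and chr18:43484691-43550101 (65411 bp). On chromosome 13 the widest were chr13:50613662-50669675 (56014 bp), chr13:45749837-45799023 (49187 bp) and chr13:109885041-109929368 (44328 bp).

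The most strongly enriched regions were not the widest ones. They were ranked by the percentile of their strongest peak, by the authors' −log10 p, within each library's own list. On chromosome 4 the strongest was chr4:40985789-41024508, 38720 bp wide. Its highest peak had a fold enrichment of 9.50, 6.69 and 7.04 in Control, 10.2, 7.53 and 10.1 in CDK19KD and 8.88, 7.88 and 8.72 in CDK8KD (replicates 1, 2 and 3). It was followed by chr4:75019196-75027551 and chr4:74957819-74985932, which lie within 100 kb of each other. On chromosome 13, chr13:80503722-80517505 was a single peak in each of the 9 libraries, with a fold enrichment of 6.11 to 9.22. The other leaders of chromosome 13 were chr13:76274818-76283513 and chr13:97899161-97918293. On chromosome 18 they were chr18:2295977-2308793 (fold enrichment 6.46 to 9.35), chr18:3581745-3631036 and chr18:20037873-20056827. Peak heights of different lists were called separately, so their order between libraries shows no change.

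The 3 groups could not be told apart by the amount of acetylated sequence on these chromosomes. Control had 6950, 9574 and 8239 peaks, CDK19KD 7050, 7400 and 6981, and CDK8KD 6574, 7193 and 7028 (replicates 1, 2 and 3). Control replicates 2 and 3 lay above all other libraries, and Control replicate 1 lay below them among the knockdown libraries. The Control mean was 8254 ± 1312, the CDK19KD mean 7144 ± 225 and the CDK8KD mean 6932 ± 321 (SD, n = 3 each). Groups held 45.1% of the variance of the log2 number (exact permutation p = 0.196 over 280 splits, adjusted over 6 measures 0.475). Without Control replicate 1 they held 82.5% (exact permutation p = 0.0179). Among peaks whose −log10 q reached 5, the log2 difference from Control turned from −0.20 to 0.15 for CDK19KD and from −0.24 to 0.11 for CDK8KD (exact permutation p = 0.7 for both), so its direction followed the threshold.

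The covered length was 25.6, 32.2 and 27.2 Mb in Control, 26.7, 24.2 and 23.9 Mb in CDK19KD and 27.8, 25.2 and 26.0 Mb in CDK8KD. Means were 28.3 ± 3.43, 24.9 ± 1.55 and 26.3 ± 1.31 Mb (SD, n = 3 each; exact permutation p = 0.25, adjusted 0.475). Median widths averaged 2088 ± 425 bp for Control, 2341 ± 279 bp for CDK19KD and 2487 ± 426 bp for CDK8KD (SD, n = 3 each; exact permutation p = 0.443, adjusted 0.475). No pair of groups could pass 0.05, since the smallest p for 3 against 3 libraries is 0.1.

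The deficit against the other autosomes was present in every group, and a difference between groups was not shown. The log2 ratio of density averaged −0.33 ± 0.10 for Control, −0.36 ± 0.069 for CDK19KD and −0.41 ± 0.085 for CDK8KD (SD, n = 3 each; exact permutation p = 0.475, adjusted 0.475). For the covered share it was −0.47 ± 0.15, −0.51 ± 0.082 and −0.61 ± 0.13 (exact permutation p = 0.368, adjusted 0.475). Replicate numbers held 50.9% and 52.8% of the variance of these ratios (exact permutation p = 0.157 and 0.129). Among libraries of the same number, CDK8KD always had the largest deficit of both. With groups exchanged only within replicate numbers, neither ratio passed (exact permutation p = 0.389 and 0.139). For the median width the log2 ratio was −0.13 ± 0.012, −0.11 ± 0.020 and −0.097 ± 0.010, a smaller deficit in all 3 CDK8KD libraries than in any Control library (exact permutation p = 0.1, the smallest possible). Over the 3 groups this width ratio did not pass (54.6% of the variance, exact permutation p = 0.136, adjusted 0.475). Without CDK19KD replicate 1 the groups held 73.3% of it (exact permutation p = 0.0429). Among the 20000 strongest peaks, the CDK8KD difference from Control in the width ratio changed sign from 0.032 to −0.052 on the log2 scale (exact permutation p = 0.5).

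Breadth within the regions that all 9 libraries hold gave a further view, a measure added once values were known. The median covered length of these 3443 regions was 4564, 5159 and 4152 bp in Control, 4728, 4275 and 4005 bp in CDK19KD, and 5025, 4639 and 4481 bp in CDK8KD (replicates 1, 2 and 3). On chromosomes 4, 13 and 18 the groups overlapped. On the other autosomes each CDK8KD library (5224 to 5308 bp) lay above each Control library (4709 to 5163 bp). The log2 ratio of both sets did not differ between groups beyond its spread (15.1% of the variance, exact permutation p = 0.564).

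Few regions were held by all 3 libraries of a group and none of another. All 3 CDK19KD libraries and no Control library held 84 regions (0.640%), against 0.591% over all autosomes, and all Control but no CDK19KD library held 61 (0.465%, against 0.419%). All CDK8KD but no Control library held 60 regions (0.457%, against 0.601%), and all Control but no CDK8KD library held 70 (0.533%, against 0.387%). These comparisons share the Control libraries. All CDK19KD but no CDK8KD library held 145 regions (1.11%, against 0.813%), and the reverse held for 76 (0.579%, against 0.76%). Set against all autosomes, the share on chromosomes 4, 13 and 18 was higher in both kinds that CDK8KD lacked and lower in both kinds that CDK8KD held. The lower shares came mainly from chromosome 4, where the kinds that CDK8KD held and Control or CDK19KD lacked made up 0.272% and 0.453%. On chromosome 13 they made up 0.774% and 0.808%, above the shares over all autosomes, and on chromosome 18 0.660% and 0.701%. Of the regions exclusive to CDK19KD or CDK8KD when these are compared, 65.6% belonged to CDK19KD on chromosomes 4, 13 and 18, against 49.8% on the other autosomes. On chromosome 4 it was 84 against 35 regions, on chromosome 13 36 against 24 and on chromosome 18 25 against 17. The balance of these counts turned to 127 CDK19KD against 165 CDK8KD regions when 50% of a region had to be covered. Among the 20000 strongest peaks it was 43 against 51, and with −log10 q from 5 upward 21 against 15. The 70 Control against 60 CDK8KD regions became 68 against 126, 15 against 21 and 7 against 13 under these settings. When peaks within 1000 bp were merged they were 67 against 59. The balance on the other autosomes is not given for these settings, so the comparison with them was not repeated. No test was made of these counts, since regions are not replicates.

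These counts rest on single libraries, since leaving one out loosens the rule. The 61 regions of Control but not CDK19KD became 501, 93 and 199 without Control replicates 1, 2 and 3, and 108 and 92 without CDK19KD replicates 1 and 3. The 70 of Control but not CDK8KD became 525, 106 and 232 without Control replicates 1, 2 and 3, and 130 and 116 without CDK8KD replicates 1 and 2. The 84 of CDK19KD but not Control became 159 and 129 without Control replicates 1 and 2, and 128 and 223 without CDK19KD replicates 1 and 2. Control replicate 1, the Control library with the fewest peaks, therefore limits both Control counts most. The 60 of CDK8KD but not Control became 117 and 92 without Control replicates 1 and 2, and 152, 139 and 103 without CDK8KD replicates 1, 2 and 3. The 145 of CDK19KD but not CDK8KD became 293, 236 and 255 without CDK19KD replicates 2 and 3 and CDK8KD replicate 1. The 76 of the reverse became 136 without CDK19KD replicate 1, and 224, 152 and 143 without CDK8KD replicates 1, 2 and 3.

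**Figure D4:**
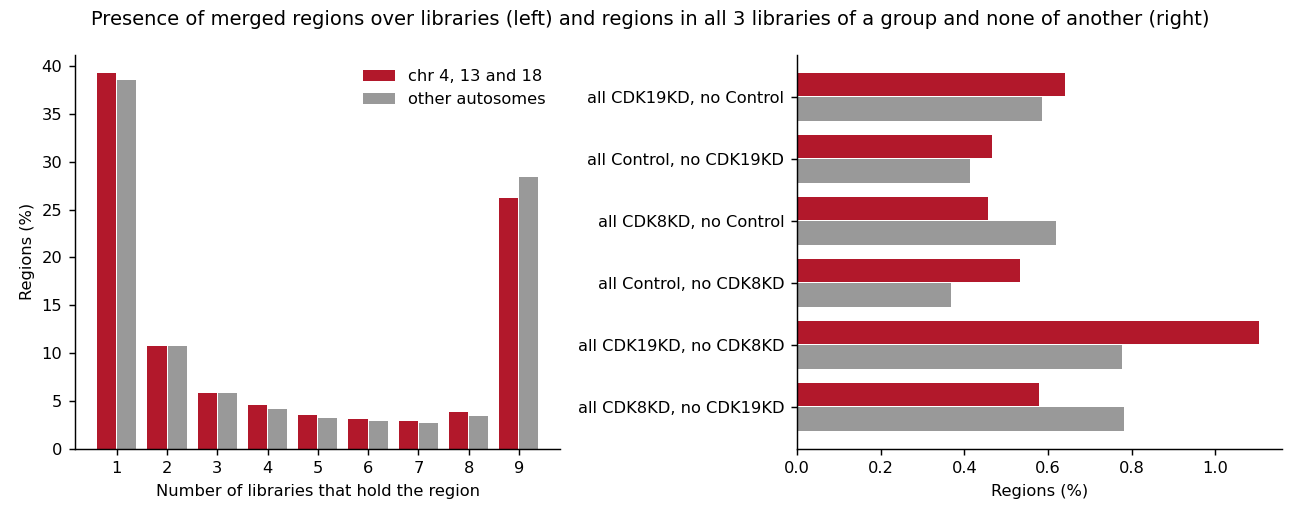
Left, share of merged regions in percent by the number of libraries that hold them, on chromosomes 4, 13 and 18 and on the other autosomes. Right, share of regions in percent held by all 3 libraries of a group and none of another; on chromosomes 4, 13 and 18 it ranges from 0.457% to 1.11%.

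Group-exclusive regions were weak, with a median percentile of 25.3 to 30.6 within their lists over the 6 kinds. Their median widths were 2465 to 2834 bp, above the median of all regions on these chromosomes and below the 7093 bp of regions that all 9 libraries held. By the rule, an exclusive region is held by 3 to 6 libraries. Regions here held by 3, 4, 5 and 6 libraries had medians of 1963, 2400, 2660 and 3123 bp, so this place between both values follows from the rule. The strongest exclusive regions of each kind show their range. The region chr4:37471136-37475859 was covered over 2664, 2518 and 2244 bp in Control and 4724, 3187 and 3994 bp in CDK19KD, and had no peak in the 3 CDK8KD libraries. Its fold enrichment was 2.56 to 3.43 in Control and 3.50 to 3.95 in CDK19KD, and it led both kinds absent in CDK8KD. Conversely, chr4:17663249-17665968 was covered over 1863, 2205 and 2312 bp in CDK8KD and 1165, 1393 and 347 bp in Control, with no peak in CDK19KD. The region chr18:46428094-46430278 had no peak in Control, 470, 487 and 504 bp in CDK19KD and 1598, 2089 and 2078 bp in CDK8KD. At chr18:43871909-43876709 the CDK19KD libraries covered 2300, 3493 and 3439 bp, CDK8KD replicate 3 covered 3766 bp and the other 5 libraries had no peak. The Control libraries alone held chr13:20251781-20252320, over 540, 288 and 447 bp. An absent peak means that none was called, not that acetylation was absent.

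Widths of shared regions were compared with limma on the log2 of the base pairs covered by each library. The fit took the 33053 autosomal regions held by all 9 libraries, of which 3443 lay on chromosomes 4, 13 and 18. By limma with Benjamini-Hochberg adjusted p under 0.05, no region there was wider or narrower in CDK19KD than in Control (0 of 3443; 0.0% over all autosomes in both directions). At an unadjusted p under 0.05 limma called 130 wider (3.78%, against 4.51% on the other autosomes) and 261 narrower (7.58%, against 5.95%). In CDK8KD against Control 5 regions were wider (0.145%, against 0.626% over all autosomes) and 5 were narrower (0.145%, against 0.0756%). In CDK19KD against CDK8KD 6 were wider (0.174%, against 0.0726%) and 13 narrower (0.378%, against 0.56%). The median log2 difference on these chromosomes was −0.075 for CDK19KD against Control, 0.019 for CDK8KD against Control and −0.089 for CDK19KD against CDK8KD. Over all autosomes these medians were −0.053, 0.096 and −0.15, so both medians that involve CDK8KD were nearer to 0 on these chromosomes.

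These calls changed with scaling and when 1 library was left out. A fit without 1 library has less power, so a lost call does not show that it rested on that library. With the replicate number added to the fit, limma called 105 regions for CDK8KD against Control, among them all 10. For CDK19KD against CDK8KD it called 131, among them all 19 (shares in the closing section). After each library was centred on its median, CDK8KD against Control gave 0 wider and 2 narrower, and CDK19KD against CDK8KD 3 wider and 0 narrower. Leaving out any of the 6 knockdown libraries left no call between CDK19KD and CDK8KD. Without Control replicates 1, 2 and 3 there were 0, 4 and 7 wider and 4, 8 and 18 narrower. For CDK8KD against Control no wider region was left without any CDK8KD library, without CDK19KD replicate 1 or 2 or without Control replicate 2. There were 4 without CDK19KD replicate 3 or Control replicate 1, and 6 without Control replicate 3. No narrower region was left without any CDK8KD library, without CDK19KD replicate 1 or without Control replicate 2. There were 1 and 2 without CDK19KD replicates 2 and 3, and 4 and 1 without Control replicates 1 and 3.

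The fit tested 1905 regions on chromosome 4, 843 on chromosome 13 and 695 on chromosome 18. The 5 regions wider in CDK8KD than in Control lay on chromosomes 13 (2) and 18 (3), and the 5 narrower ones on chromosomes 4 (4) and 13 (1). Of those wider in CDK19KD than in CDK8KD, 5 lay on chromosome 4 and 1 on chromosome 13, and of the 13 narrower ones 4, 3 and 6 lay on chromosomes 4, 13 and 18. These counts are too small to compare the chromosomes, and no test of them was made. The regions described next were picked for the lowest p in each comparison and direction. Separation of the groups compared therefore follows from that choice.

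At chr13:99304606-99313120 the Control libraries covered 2756, 1676 and 2319 bp, the CDK19KD libraries 4449, 4502 and 4627 bp and the CDK8KD libraries 7791, 7378 and 5528 bp. The 3 groups did not overlap, with CDK19KD between the others, and the log2 difference of CDK8KD from Control was 1.63 ± 0.23 (SE; limma adjusted p = 0.0296). Likewise, chr18:9964596-9974825 was covered over 3356, 4223 and 2610 bp in Control, 4749, 4860 and 6090 bp in CDK19KD and 8105, 9620 and 8056 bp in CDK8KD (log2 difference 1.36 ± 0.21, limma adjusted p = 0.0328). At chr13:114986676-114994178 the CDK8KD libraries (6837, 6944 and 7503 bp) stood apart from both Control (2595, 1636 and 1626 bp) and CDK19KD (2094, 1957 and 4014 bp), with a log2 difference from Control of 1.90 ± 0.31 (limma adjusted p = 0.0389).

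The narrower regions followed several patterns. At chr4:95435116-95447029 the CDK8KD libraries covered 1986, 1978 and 2789 bp, against 7468, 8133 and 8223 bp in Control and 7025, 5183 and 8256 bp in CDK19KD. Here CDK8KD alone was narrow, by −1.84 ± 0.22 on the log2 scale against Control (limma adjusted p = 0.0272), and CDK19KD exceeded CDK8KD by 1.59 ± 0.22 (limma adjusted p = 0.0299). At chr4:4428044-4434343 both knockdowns lay below Control, with 3991, 5200 and 5806 bp in Control, 1268, 2015 and 1212 bp in CDK19KD and 628, 813 and 250 bp in CDK8KD (CDK8KD against Control −3.29 ± 0.47, limma adjusted p = 0.0297). At chr13:37594320-37607092 the Control libraries covered 3539, 12773 and 5972 bp and all 6 knockdown libraries 536 to 1311 bp (CDK8KD against Control −2.86 ± 0.50, limma adjusted p = 0.0427). This last region was weak, and its strongest peak had a −log10 p of 2.08 to 3.85 and a fold enrichment of 2.07 to 2.77 over the libraries. The 12773 bp of Control replicate 2 were 1 peak with a −log10 p of 2.59. None of these regions was called by limma in CDK19KD against Control.

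Between both knockdowns, a pair of regions on the long arm of chromosome 4 was broad in CDK19KD. At chr4:177222015-177232892 CDK19KD covered 8222, 9221 and 10169 bp, Control 3046, 4749 and 3250 bp and CDK8KD 3482, 2559 and 1710 bp (log2 difference from CDK8KD 1.89 ± 0.28, limma adjusted p = 0.0347). At chr4:175788239-175800262 CDK19KD covered 11583, 9171 and 9604 bp, Control 4419, 4547 and 2721 bp and CDK8KD 4136, 2456 and 2402 bp (1.80 ± 0.28, limma adjusted p = 0.0379). In both regions the CDK19KD libraries lay above all 6 others, although limma called neither against Control.

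The reverse order, CDK8KD above Control and Control above CDK19KD, appeared in regions of chromosomes 13 and 18. At chr18:56550354-56566075 CDK8KD covered 10801, 10185 and 14897 bp, Control 6934, 4551 and 5298 bp and CDK19KD 2227, 1616 and 3773 bp (CDK19KD against CDK8KD −2.31 ± 0.31, limma adjusted p = 0.0299). At chr13:30731166-30735810 CDK8KD covered 4526, 4523 and 4272 bp, Control 1170, 1348 and 2305 bp and CDK19KD 393, 917 and 700 bp (−2.81 ± 0.41, limma adjusted p = 0.0303). At chr18:46354868-46369228 CDK8KD covered 11463, 10258 and 14361 bp, Control 8514, 9015 and 10092 bp and CDK19KD 5866, 5327 and 5696 bp (−1.08 ± 0.16, limma adjusted p = 0.0303). The groups did not overlap in any of these 3 regions, which were picked for a low limma p between CDK19KD and CDK8KD.

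**Figure D5:**
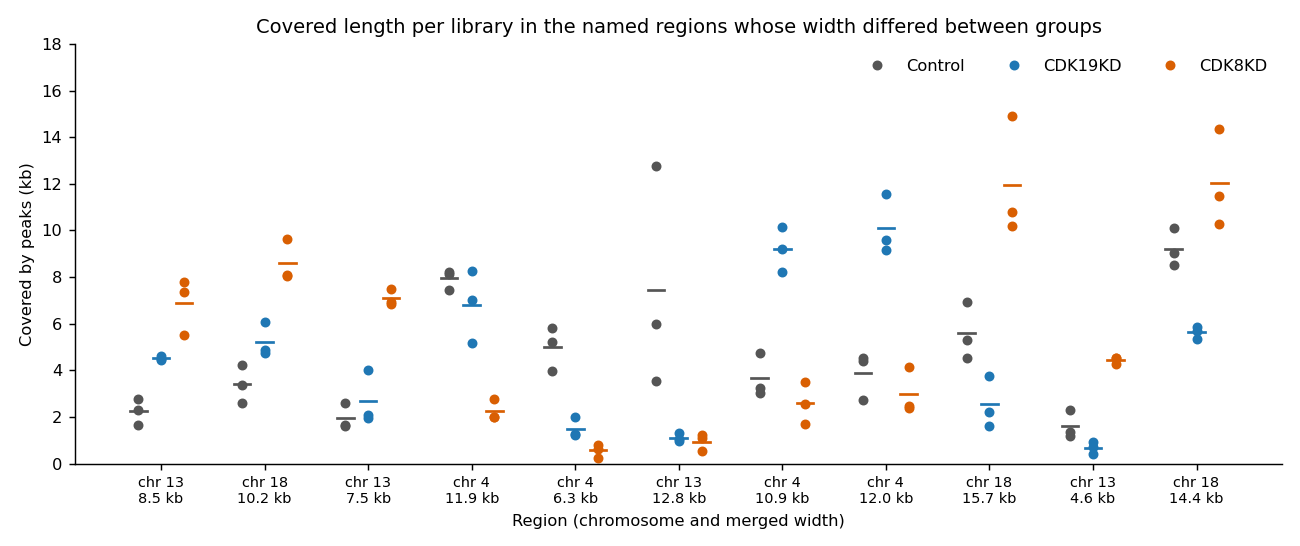
Length covered by peaks in kb for each library (points) and group mean (bars) in the 11 named regions of chromosomes 4, 13 and 18 whose width passed limma's adjusted threshold in at least 1 comparison, each labelled with its chromosome and merged width. From the left, CDK8KD is above Control in the first 3 regions and below it in the next 3, CDK19KD is above CDK8KD in the next 2 and below it in the last 3.

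The likeness of 2 lists varied with the group and with the replicate number. The Jaccard index is the shared covered length divided by the union of both. On chromosomes 4, 13 and 18 it was 0.638 to 0.658 for the 3 pairs of CDK19KD libraries, 0.618 to 0.662 for those of CDK8KD and 0.535 to 0.594 for those of Control. Pairs of different groups with the same replicate number averaged 0.624 ± 0.0552 (SD, 9 pairs), and those that differed in both averaged 0.574 ± 0.0371 (18 pairs). The Control pairs averaged 0.557, within the spread of pairs that shared neither group nor number. Pairs share libraries, so these values are a description without a test.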

How the data were processed

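H3K27ac was measured by native ChIP-seq in 9 libraries, grouped by the sample titles. The authors deposited 1 peak list per library, with MACS2 and deepTools as tools and hg19 as build per the submitters' processing notes; aligner, settings, control library and depth are not given in the sources used here. The lists have no header and the layout of MACS2 broad peaks. The deposited fold enrichment is a linear ratio. The −log10 p and −log10 q values were deposited by the authors for each peak. The deposited score, 10 times the −log10 q rounded down, was not used. All served only to rank, filter or describe peaks within their own list. An hg19 genome or annotation was not used here, so regions carry no gene names and the gene lists drawn up were not analysed here.

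Merging used chromosomes 1 to 22, and a region counted as held by a library with any overlap of 1 bp or more. Chromosomes were compared over libraries with exact sign-flip permutation tests, groups over 280 splits of 9 libraries, and pairs over 10 splits of 6 libraries, each two-sided for differences, with Benjamini-Hochberg adjustment over 5, 15 or 6 tests. Region widths were fitted with limma 3.58.1 (lmFit, eBayes with trend) on all 9 libraries, adjusted over all regions; the code was tested on simulated data. Python 3.11.15, scipy 1.17.1 and R 4.3.3 were used.

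Regions named are, per chromosome, the 3 widest and the 3 strongest held by all 9 libraries, the longest stretch without a region and the most covered 1 Mb bin. For each comparison and direction they are also the strongest exclusive region and up to 3 called regions with the lowest p. The members and lists were chosen with earlier results of these data known. Alternatives are given in the closing section.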

Additional observations from a re-analysis of the deposited data

Results flagged for a closer look

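The files also hold peaks on an alternate haplotype sequence of chromosome 4, chr4_ctg9_hap1, which entered no comparison above. They numbered 6, 9 and 5 in Control replicates 1, 2 and 3, 10, 7 and 6 in CDK19KD and 5, 4 and 4 in CDK8KD, a mean of 6.22 over 9 libraries. They are given here because they lie in sequence that the comparisons did not use. The groups overlapped, with means of 6.67 ± 2.08, 7.67 ± 2.08 and 4.33 ± 0.577 (SD, n = 3 each). An unplaced sequence of chromosome 4, chr4_gl000193_random, had 1 peak in Control replicate 1 and none in the other 8 libraries.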

How the results depend on the processing

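Over 765 alternative values, 631 kept their direction and their side of the threshold, or for a count stayed within 1.5 times. This count is no measure of stability, since many of these values had little room to change. Pairs of groups could not pass 0.05 under any setting, and the replicate block alters only the p-values of the permutation tests. Density and covered share stayed below the other autosomes under each alternative tried, with log2 ratios of −0.38 to −0.35 and −0.55 to −0.51 when 1 library was left out, and of −0.57 (20000 strongest peaks) to −0.30 (without chromosome 13) and −0.72 (without chromosome 4) to −0.45 (without chromosome 13) over the other alternatives. The width ratio was −0.055 with −log10 q from 5 upward and −0.050 without chromosome 4 (exact permutation p = 0.0117 for both), against −0.11. Merging peaks within 1000 bp, leaving region-free stretches of 3 Mb or more out of the length and leaving chromosomes 16, 17, 19, 20 and 22 out of the comparison changed no call.

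When only peaks with −log10 q from 5 upward were kept, the log2 difference from Control changed sign for peak number (CDK19KD 0.15, CDK8KD 0.11), covered length (CDK8KD 0.081), median width (CDK19KD −0.17) and width ratio (CDK19KD −0.012, CDK8KD −0.043; CDK19KD against CDK8KD 0.031). Exclusive regions then numbered 13 (CDK19KD, not Control), 4 (the reverse), 13 (CDK8KD, not Control), 7 (the reverse), 21 (CDK19KD, not CDK8KD) and 15 (the reverse). Width calls were 0 wider and 0 narrower for CDK8KD against Control, and 0 and 1 for CDK19KD against CDK8KD, an alternative added after seeing the data.

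With the 20000 strongest peaks of each list, the width ratio to the other autosomes was −0.041 (exact permutation p = 0.102). Signs changed for median width (CDK19KD against Control −0.092) and width ratio (CDK8KD against Control −0.052, CDK19KD against CDK8KD 0.057). Exclusive regions were 24, 34, 21, 15 and 43 in the order above, and 51 in the last kind. Width calls, added after seeing the data, were 2 and 0 for CDK8KD against Control and 0 and 8 for CDK19KD against CDK8KD.

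With peaks of at least 500 bp, fold enrichment passed (−0.031, exact permutation p = 0.0352) and the width ratio of CDK19KD against CDK8KD was 0.0068. Fold enrichment was 0.013 without chromosome 4, −0.036 without chromosome 13 (exact permutation p = 0.00781) and −0.031 without chromosome 18 (exact permutation p = 0.0313). Without chromosome 4 the width ratio of CDK19KD against CDK8KD was 0.0011, exclusive regions were 43, 29, 39, 37, 61 and 41, and width calls fell to 1 narrower in CDK8KD than in Control and 1 wider in CDK19KD than in CDK8KD. Without chromosome 13, CDK8KD but not Control had 37, the reverse 45, and 3 regions were wider in CDK8KD than in Control. Without chromosome 18, 2 were wider in CDK8KD than in Control and 7 narrower in CDK19KD than in CDK8KD. If 50% of a region had to be covered, CDK8KD held 126 that Control did not and 165 that CDK19KD did not. With regions held by at least 6 libraries and 100 bp added, 11 were narrower in CDK8KD than in Control and 13 wider in CDK19KD than in CDK8KD. Centred on the library median, width calls were 0 and 2 for CDK8KD against Control, and 3 and 0 for CDK19KD against CDK8KD.

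Leaving out 1 library gave these ranges. Exclusive counts were 84 to 223 (CDK19KD, not Control), 60 to 501, 60 to 152 (CDK8KD, not Control), 69 to 525, 144 to 293 (CDK19KD, not CDK8KD) and 76 to 224. Width calls were 0 to 6 wider and 0 to 4 narrower for CDK8KD against Control, and 0 to 7 and 0 to 18 for CDK19KD against CDK8KD. Groups held 31.2% to 82.5% of the variance in peak number and 43.0% to 73.3% of that in the width ratio. The share of peaks in regions held by all differed by −4.40 to −3.86 points. Signs turned for CDK19KD against Control in the ratio of density (−0.088 to 0.0081), covered share (−0.11 to 0.028) and breadth (−0.081 to 0.031), and for CDK19KD against CDK8KD in median width (−0.17 to 0.055).

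The labels number the replicates 1 to 3 in each group. Deviations of region widths from the group means correlated at 0.0823 to 0.518 between same-numbered libraries (mean 0.353). Between libraries of different group and number the mean was −0.177. Same-numbered pairs lay above 0.1 in 8 of 9 cases, and since 1 did not, the main results do not pair the samples. All 9 libraries correlated best with one of their own number, a hint from the data and not from the design. Pairing by number is therefore not excluded, and the main results leave it out of account. With the replicate block, limma called 1 region wider and 0 narrower in CDK19KD than in Control (0.0290% and 0%, against 0.0507% and 0.0371% on the other autosomes). In CDK8KD against Control it called 68 and 37. That was 1.98% and 1.07% of the regions tested on these chromosomes, against 4.12% and 0.675% on the other autosomes. In CDK19KD against CDK8KD it called 30 and 101 (0.871% and 2.93%, against 0.594% and 4.27%). With centring and the replicate block, added after seeing the data, these were 4 wider in CDK19KD than in Control, 34 and 56, and 44 and 22. The balance of wider and narrower calls thus turned with centring in both comparisons that involve CDK8KD. Shares on the other autosomes are not given for this fit, so these counts are not set against them. The block changed no call of the permutation tests, in which pairs of groups could not pass. For median width over 3 groups its exact permutation p was 0.0556. Numbers rather than groups held 69.4% of the variance in median width (exact permutation p = 0.0357) and 72.7% of that in the breadth ratio (exact permutation p = 0.0321).

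Depth limits all of this: a weaker library can miss a region that another lists, and the lists give no counts to set this against.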
